A study of Mus musculus with 6 samples.

Results

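Solute carriers are the membrane proteins that move amino acids, sugars, ions and metabolites across the plasma membrane and the membranes of organelles. The genes described here are the protein-coding mouse genes whose symbol begins with Slc followed by a digit, leaving out the mitochondrial Slc25 family and Slc8a3. The GENCODE annotation of the mouse genome GRCm38 holds 323 such genes, of which 149 are in the table of 12353 expressed genes and 174 are not. A total of 4 of the 149 genes (Slc4a1ap, Slc7a6os, Slc9a3r1 and Slc9a3r2) carry a carrier's name but encode an adaptor, a binding protein or a neighbor of a carrier, and they were kept as a class of their own.

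The RNA came from the gastrocnemius, a calf muscle made mostly of fast-twitch fibers, of 3 Nogo-/- mice and 3 Nogo+/+ mice, with 1 polyadenylated RNA library per mouse. Nogo-/- mice are a knockout of Nogo, the reticulon protein encoded by Rtn4, and the Nogo+/+ mice are wild-type. The muscle was sampled whole, so blood vessels, nerve, connective tissue and fat contribute RNA, and the age and sex of the sequenced mice are not given in the sources used here. Libraries are named here as in the table's columns, Samples 4, 5 and 6 for Nogo-/- and Samples 1, 2 and 3 for Nogo+/+. In bulk RNA, fewer cells of a type and less RNA per cell cannot be told apart.

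Rtn4 was read at an FPKM of 0.423, 0.312 and 0.368 in Nogo-/- muscle, against 414, 429 and 425 in Nogo+/+ muscle, so the table's groups carry the genotype their labels give. FPKM counts the fragments of a gene scaled for the length of its transcript and the depth of the library, so levels may be compared between genes. Depth, recovered from the values, was 13763000 to 14460000 fragments per Nogo-/- library and 13500000 to 14424000 per Nogo+/+ library. At this depth a transcript of 2000 bases with an FPKM of 1 rests on about 27 to 29 fragments. All 7 skeletal muscle fiber markers were present, and their genotypes overlapped for each. Of these, Ckm, Acta1, Myh4 and Tnnt3 are among the most abundant genes and take the same quantile-normalized value in every library, so the main test could not call them. Without quantile normalization their adjusted p-values were 0.485, 0.235, 0.159 and 0.514. The 5 endothelial markers, summed, stood at 78.4, 71.1 and 63.2 FPKM in Nogo-/- muscle and at 114, 102 and 103 FPKM in Nogo+/+ muscle, and all 5 were lower in Nogo-/-. The 5 smooth muscle and pericyte markers summed to 163 to 205 FPKM in Nogo-/- muscle and 225 to 233 FPKM in Nogo+/+ muscle, and Acta2 (adjusted p = 0.0265) and Pdgfrb (0.0479) were lower. The 6 adipocyte markers summed to 520, 277 and 207 FPKM in Nogo-/- muscle and to 158, 223 and 230 FPKM in Nogo+/+ muscle, mostly from Cfd. None of them passed, but Cidec, Plin1 and Lep were higher in each Nogo-/- library than in any Nogo+/+ library. Cidec had 31.7, 18.6 and 13.1 FPKM in Nogo-/- muscle and 5.83, 8.95 and 9.38 FPKM in Nogo+/+ muscle (adjusted p = 0.0525). It passed with a pseudocount of 0.1 (0.0450), a minimum mean FPKM of 1 (0.0494) and sample weights (0.0417). It did not pass without quantile normalization (0.0504) or without a mean-variance trend (0.104). With 1 library left out, Cidec passed only without Sample 6 (0.0237, with 0.0827 to 0.151 in the others). The 5 keratinocyte markers reached 180 FPKM in Nogo-/- Sample 6, against 2.88 to 11.1 FPKM in the other libraries.

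Muscle depends on a small set of these carriers. The insulin-responsive glucose carrier GLUT4 (Slc2a4) brings glucose into fibers, the monocarboxylate carriers export the lactate that fast glycolytic fibers make, and the creatine carrier supplies the phosphocreatine store. Neutral amino acids enter by sodium-coupled carriers of the Slc38 family and leave or exchange through the Slc7 and Slc43 families, some of which need the heavy chain encoded by Slc3a2 to reach the membrane.

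Between genotypes, 15 of the 149 solute carriers passed the test (10.1%), a share to be read against 4.64% of all 12353 genes. The test was limma on quantile-normalized log2(FPKM + 1), with p-values adjusted over all genes and a threshold of 0.05. In Nogo-/- muscle 8 rose (5.37%, beside 1.89% of all genes) and 7 fell (4.7%, beside 2.75%). The amino acid carriers gave 6 of the 15, with the sodium-coupled pair Slc38a2 and Slc38a4 and the aromatic amino acid carrier Slc16a10 lower and the exchangers or facilitative carriers Slc7a8, Slc7a2 and Slc43a1 higher. The other 9 were the creatine and carnitine carriers Slc6a8 and Slc16a9, the ion carriers Slc9a2 (lower), Slc12a4 and Slc4a8 (higher), the iron exporter Slc40a1 (lower), the zinc exporter Slc30a1 (higher), the lactate and pyruvate carrier Slc16a1 (higher) and the nucleobase carrier Slc43a3 (higher). The most abundant carriers of the muscle, for glucose and for lactate export, did not pass. Without quantile normalization 11 members were higher and 5 lower (68.8% higher, against 53.3% in the main test), and among all genes 302 were higher and 234 lower (56.3% higher, against 40.7%).

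At an unadjusted p under 0.05, 49 members (32.9%) differed, beside 20.5% of all genes. The libraries of the genotypes did not overlap for 51 members (34.2%), beside 25.9% of all genes, with 32 members higher in Nogo-/- (21.5%, beside 15.9% of all genes) and 19 lower (12.8%, beside 10%). All 15 called members were among these 51. Over all 149 members the median log2 fold change was 0.02, beside -0.01 for all genes, and the median of its size without regard to sign was 0.14, beside 0.10 for all genes. Slc16a10 lay nearest the threshold inside it, at an adjusted p of 0.0490, and Slc10a6 nearest outside it, at 0.0557.

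**Figure D1:**
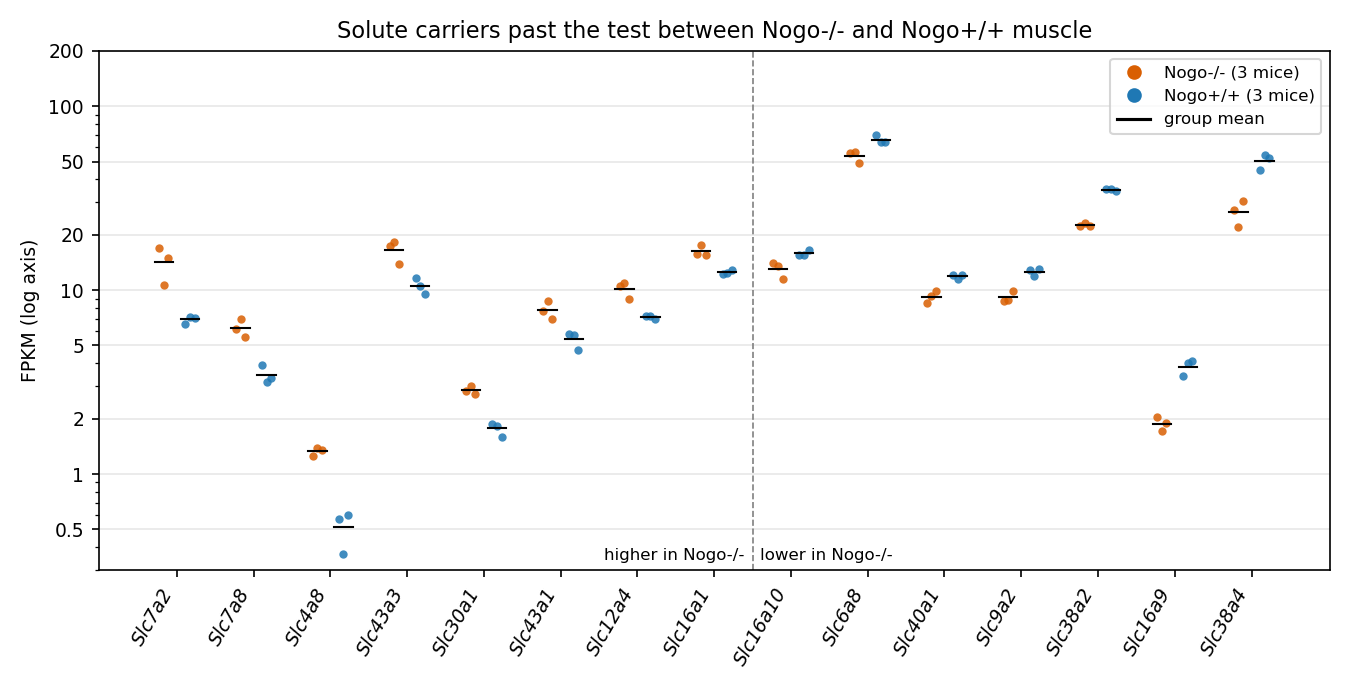
FPKM of the 15 solute carriers past the test, on a log axis, with 1 point per mouse, 3 Nogo-/- mice left of 3 Nogo+/+ mice for each gene and a line at the group mean. The 8 genes left of the dashed line were higher in Nogo-/- and the 7 right of it lower, and in none of the 15 do the points of the genotypes overlap.

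Among the called genes were pairs of neighbors. Slc38a2 (chr15:96687392-96699730, minus strand) and Slc38a4 (chr15:96994820-97055956, minus strand) lie 295 kb apart with no protein-coding gene between them, and both fell in Nogo-/-. Slc43a1 (chr2:84838850-84863594, plus strand) and Slc43a3 (chr2:84936579-84958509, plus strand) lie 73.0 kb apart with 1 protein-coding gene, Rtn4rl2, between them that is not in the table, and both rose. The 250 bases upstream of the RefSeq start are shown for the Slc38 pair, since both genes fell, and for Slc16a1. Slc16a1, at a mean of 14.4 FPKM, was chosen because it rose and its upstream sequence holds an E-box (CACGTG). These are the letters bound by CLOCK and BMAL1 and by other basic helix-loop-helix factors. Sequences are from RefSeq on GRCm38.p6, 5′ to 3′ on the gene's strand, at chr15:96699729-96699978 (minus strand) for Slc38a2, chr15:97055957-97056206 (minus strand) for Slc38a4 and chr3:104638414-104638663 (plus strand) for Slc16a1. Capitals mark the E-box.
Slc38a2: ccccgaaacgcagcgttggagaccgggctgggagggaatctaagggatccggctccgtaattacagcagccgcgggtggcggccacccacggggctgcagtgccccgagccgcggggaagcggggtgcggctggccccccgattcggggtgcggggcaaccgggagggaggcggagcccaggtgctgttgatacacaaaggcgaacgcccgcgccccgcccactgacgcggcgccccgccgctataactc
Slc38a4: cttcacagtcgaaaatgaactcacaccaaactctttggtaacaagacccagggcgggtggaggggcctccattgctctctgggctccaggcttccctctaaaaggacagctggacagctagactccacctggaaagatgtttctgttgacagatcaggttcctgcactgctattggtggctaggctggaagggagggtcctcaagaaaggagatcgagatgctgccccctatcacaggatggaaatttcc
Slc16a1: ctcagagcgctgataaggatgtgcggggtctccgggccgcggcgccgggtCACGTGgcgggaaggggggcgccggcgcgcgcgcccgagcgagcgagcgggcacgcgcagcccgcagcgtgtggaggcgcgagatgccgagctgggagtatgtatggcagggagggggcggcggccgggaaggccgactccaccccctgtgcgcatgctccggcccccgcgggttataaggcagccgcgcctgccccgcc

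The upstream windows of Slc38a2 and Slc38a4 hold no CACGTG, and that of Slc16a1 holds 1, starting 200 bases upstream. A total of 116 of the 149 members matched a RefSeq promoter, and 16 of them (13.8%) hold CACGTG in these 250 bases, beside 6.02% of all 32851 promoters and 6.86% of the 27025 gene symbols they belong to. The sets are unlike, since the members are all expressed in this muscle and the promoters include those of genes that are not. The share among the expressed genes was not computed, so the difference cannot be read as a trait of solute carriers. Among the 10 called members with a match, Slc16a1 and Slc43a1 hold it. The letters TGATGNAA, an amino acid response element searched on both strands, are in 4 of the 116 members and in 3.45% of all promoters, and in none of the 10 called members. TTATGTAA, the D-box bound by PAR bZIP factors, is in none of the 116 members and in 0.819% of all promoters. A match is a description of the letters in these windows. Elements elsewhere in a gene, such as in its introns, were not searched. For letters this rare, their absence from 10 genes carries little information.

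The amino acid carriers were the class with the most calls, and also among the largest classes. By share of the class they did not stand alone, beside 4.64% of all genes called. Of the 8 carriers of creatine, taurine, carnitine, choline and polyols 2 were called, and of the 3 monocarboxylate carriers 1. The inorganic ion class, with 26 genes, had 2 higher and 1 lower, and the metal ion class, with 24, had 1 higher and 1 lower. Of the 52 annotated amino acid carriers, 25 were in the table. In Nogo-/- muscle 3 of these 25 were higher and 3 lower, and 19 did not pass, with a median log2 fold change of 0.08. Their summed level was 279, 253 and 234 FPKM in Nogo-/- muscle and 267, 258 and 260 FPKM in Nogo+/+ muscle (two-sided exact permutation p = 0.7), so the genotypes overlapped for the class as a whole.

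Slc38a2 encodes SNAT2, a sodium-coupled carrier of small neutral amino acids such as alanine and glutamine that cells are known to induce on amino acid withdrawal. It stood at 22.2, 23.0 and 22.3 FPKM in Nogo-/- muscle, against 35.4, 35.4 and 34.7 FPKM in Nogo+/+ muscle. The mice of each genotype differed by under 1 FPKM, and the groups were far apart. The log2 fold change was -0.67 (SE 0.05, adjusted p = 3.01e-04), and the call held in all 6 fits that each left out 1 library. Its neighbor Slc38a4, encoding SNAT4, a related carrier that is prominent in liver and imprinted in the mouse, had 27.1, 22.1 and 30.3 FPKM in Nogo-/- muscle, against 44.7, 54.6 and 52.3 FPKM in Nogo+/+ muscle. No Nogo-/- library reached the lowest Nogo+/+ library, and the log2 fold change was -0.96 (SE 0.12, adjusted p = 0.00426), again held in all 6 fits. These levels are not alike for all of the family. Slc38a3, encoding the glutamine carrier SNAT3 and the most abundant amino acid carrier of the table, had 44.7, 48.6 and 40.7 FPKM in Nogo-/- muscle and 60.8, 49.1 and 51.5 FPKM in Nogo+/+ muscle. Its groups barely separate, and the difference of -0.30 on the log2 scale had an adjusted p of 0.0944. Slc38a10 ran the other way without passing, at 19.5, 18.1 and 16.9 FPKM in Nogo-/- muscle and 15.6, 14.5 and 14.8 FPKM in Nogo+/+ muscle (log2 fold change 0.21, adjusted p = 0.0976).

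In the Slc7 family, Slc7a8 and Slc7a2 rose. Slc7a8 encodes LAT2, a light chain that exchanges neutral amino acids once it is joined to the heavy chain. It had 6.14, 6.94 and 5.56 FPKM in Nogo-/- muscle, against 3.92, 3.18 and 3.33 FPKM in Nogo+/+ muscle. Every Nogo-/- library was above every Nogo+/+ library, with a log2 fold change of 0.65 (SE 0.09, adjusted p = 0.00597) that held in all 6 fits leaving out 1 library. Slc7a2 encodes CAT2, a carrier of the cationic amino acids arginine, lysine and ornithine. It had 16.9, 10.7 and 14.9 FPKM in Nogo-/- muscle, against 6.52, 7.18 and 7.09 FPKM in Nogo+/+ muscle. The mean ratio of 2.04 was the largest rise among called members with a mean FPKM over 10, and the log2 fold change was 0.87 (SE 0.15, adjusted p = 0.0148). It held without any 1 of the Nogo-/- libraries but not without Sample 1, 2 or 3, where the adjusted p was 0.0628, 0.0663 and 0.0659. The heavy chain gene Slc3a2 itself had 25.7, 23.4 and 24.9 FPKM in Nogo-/- muscle and 21.3, 19.0 and 18.2 FPKM in Nogo+/+ muscle. The groups did not overlap, and the log2 fold change of 0.28 had an adjusted p of 0.0681 in the main test and of 0.0433 without quantile normalization. Slc7a5, encoding the leucine carrier LAT1 that also joins this heavy chain, was scarce, at 1.66, 1.41 and 1.81 FPKM in Nogo-/- muscle and 1.01, 1.03 and 1.44 FPKM in Nogo+/+ muscle. Its groups overlapped and it did not pass (log2 fold change 0.26, adjusted p = 0.286).

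Slc43a1 encodes LAT3, a facilitative carrier of branched-chain amino acids. It had 7.72, 8.75 and 6.96 FPKM in Nogo-/- muscle, against 5.76, 5.68 and 4.74 FPKM in Nogo+/+ muscle, a log2 fold change of 0.43 (SE 0.09, adjusted p = 0.0392). Slc16a10 encodes TAT1, which carries aromatic amino acids. It had 14.1, 13.6 and 11.5 FPKM in Nogo-/- muscle, against 15.6, 15.5 and 16.6 FPKM in Nogo+/+ muscle, a log2 fold change of -0.32 (SE 0.07, adjusted p = 0.0490). For each of them the groups are separate but close, and neither passed in any fit that left out 1 library, with adjusted p-values of 0.0582 to 0.133 for Slc43a1 and 0.0596 to 0.171 for Slc16a10.

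Slc1a5 encodes ASCT2, a sodium-dependent exchanger of alanine, serine, cysteine and glutamine. It had 52.3, 37.0 and 27.3 FPKM in Nogo-/- muscle and 22.9, 22.7 and 23.4 FPKM in Nogo+/+ muscle. The Nogo+/+ mice lay within 1 FPKM of each other while the Nogo-/- mice spread widely, and the log2 fold change of 0.63 did not pass (adjusted p = 0.101). Without Sample 6 the adjusted p was 0.0161. The same leave-out brought 4 further carriers past the threshold, which were chosen for naming after their values were seen. These are Slc1a3, a glutamate carrier, Slc7a10, an exchanger of small neutral amino acids known as a marker of white adipocytes, Slc36a2, a proton-coupled carrier of small amino acids known as a marker of brown and beige adipocytes, and Slc5a6, a carrier of biotin and pantothenate. Slc7a10 had 4.47, 3.71 and 1.3 FPKM in Nogo-/- muscle and 1.41, 1.63 and 2.06 FPKM in Nogo+/+ muscle. Slc36a2 had 4.48, 3.79 and 1.77 FPKM in Nogo-/- muscle and 2.04, 2.07 and 2.22 FPKM in Nogo+/+ muscle. All 5 of these carriers were highest in Samples 4 and 5, which their choice by the fit without Sample 6 largely fixes. The summed adipocyte markers stood at 520, 277 and 207 FPKM in Samples 4, 5 and 6, against 158 to 230 FPKM in Nogo+/+ muscle, while Cidec, Plin1 and Lep exceeded every Nogo+/+ library in Sample 6 too. The part of fat in the levels of these carriers was not tested.

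**Figure D2:**
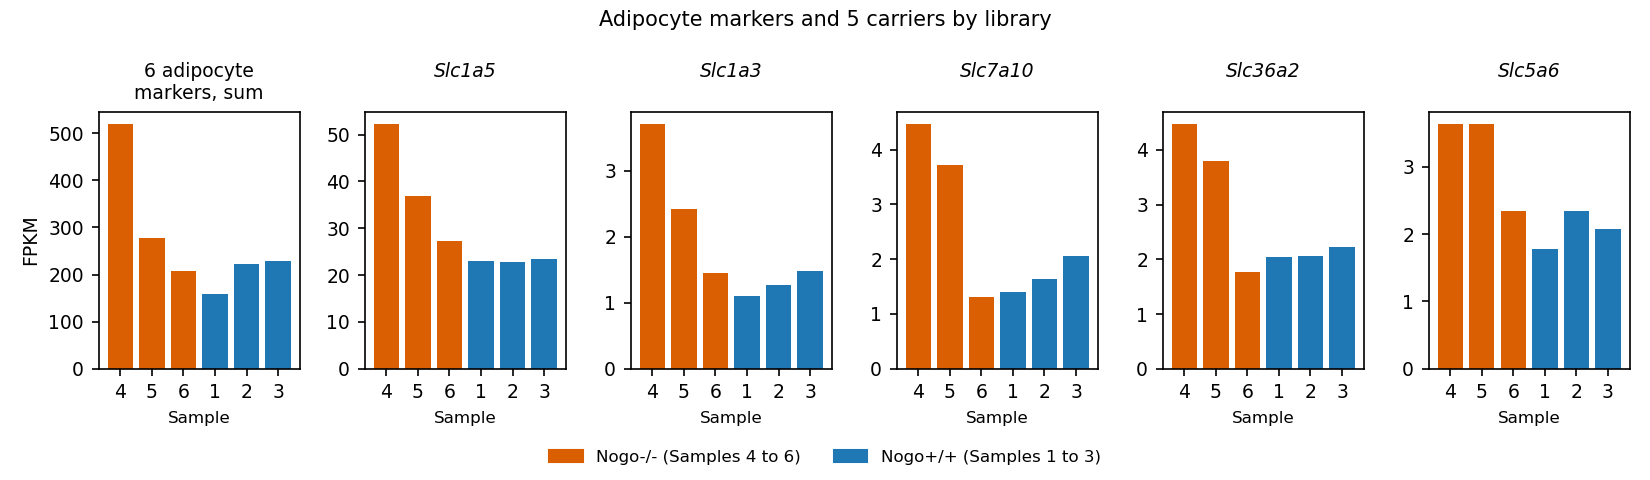
FPKM in each of the 6 libraries, as bars from 0, of the 6 adipocyte markers summed and of the 5 carriers that passed only without Sample 6 (Slc1a5, Slc1a3, Slc7a10, Slc36a2 and Slc5a6), with the Nogo-/- Samples 4 to 6 left of the Nogo+/+ Samples 1 to 3. The marker sum, most of it from Cfd, was 520, 277 and 207 FPKM in Samples 4, 5 and 6, and the tall bars of the carriers in Samples 4 and 5 follow largely from how these 5 were chosen.

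The carriers of creatine, taurine, carnitine, choline and polyols had 8 of 16 annotated genes in the table, with 2 lower in Nogo-/- and none higher, and a median log2 fold change of -0.06. Slc6a8 encodes the creatine carrier of muscle. It had 55.8, 56.5 and 49.1 FPKM in Nogo-/- muscle, against 69.4, 63.6 and 63.9 FPKM in Nogo+/+ muscle. The groups did not overlap, and the log2 fold change was -0.33 (SE 0.06, adjusted p = 0.0225). The call was lost without Sample 1, 2 or 3 (adjusted p of 0.0735, 0.0892 and 0.0668), without quantile normalization (0.0536) and without a mean-variance trend (0.0649). Slc16a9 belongs to the monocarboxylate carrier family by sequence, and in humans its product has been described as a carrier of carnitine. It was far less abundant, at 2.03, 1.71 and 1.89 FPKM in Nogo-/- muscle, against 3.41, 4.0 and 4.09 FPKM in Nogo+/+ muscle. Its level in Nogo-/- was 0.490 times that in Nogo+/+, the log2 fold change was -0.78 (SE 0.09, adjusted p = 0.00327), and the call held in all 6 fits leaving out 1 library.

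The remaining members of this class did not pass. The taurine carrier Slc6a6 had 20.03, 26.7 and 18.9 FPKM in Nogo-/- muscle and 24.8, 23.9 and 22.9 FPKM in Nogo+/+ muscle, with Nogo-/- libraries both below and above the whole Nogo+/+ group, and it passed only without Sample 5 (adjusted p = 0.0411, against 0.394 with all libraries). The carnitine carrier Slc22a5 (OCTN2) had 5.74, 5.28 and 5.02 FPKM in Nogo-/- muscle and 4.12, 4.10 and 4.70 FPKM in Nogo+/+ muscle, which do not overlap (log2 fold change 0.23, adjusted p = 0.141). Slc44a2, a choline transporter-like protein with a mean of 94.9 FPKM, differed by 0.02 on the log2 scale (95% interval -0.12 to 0.17). The creatine enzymes Gatm and Gamt did not pass either.

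The class of carriers of glucose and other sugars held the largest share of the members' RNA (20.6% of the members' summed FPKM). None of the 11 in the table, of 27 annotated, passed. Slc2a4 was the most abundant solute carrier of the muscle at 251, 245 and 237 FPKM in Nogo-/- muscle and 231, 229 and 225 FPKM in Nogo+/+ muscle. Each Nogo-/- library was above each Nogo+/+ library, and yet the log2 fold change was only 0.05, with a 95% interval of -0.02 to 0.12 and an adjusted p of 0.414. Slc37a4, which moves phosphorylated glucose into the endoplasmic reticulum, had 113, 111 and 124 FPKM in Nogo-/- muscle and 99.5, 103 and 107 FPKM in Nogo+/+ muscle, also without overlap (log2 fold change 0.13, adjusted p = 0.206). Slc2a1, the basal glucose carrier GLUT1 that is also prominent in endothelium, had 4.24, 4.61 and 3.52 FPKM in Nogo-/- muscle and 4.96, 5.21 and 4.59 FPKM in Nogo+/+ muscle. Its direction was the opposite one and it did not pass (log2 fold change -0.24, adjusted p = 0.177), while the endothelial marker sum was 63.2 to 78.4 FPKM in Nogo-/- muscle and 102 to 114 FPKM in Nogo+/+ muscle, whose part in this level was not tested. Slc45a4 (0.27, adjusted p = 0.0672) and Slc2a8 (0.24, adjusted p = 0.104) lay closest to the threshold in the class. Summed over the class, the deposited FPKM were 419, 411 and 412 in Nogo-/- muscle and 378, 379 and 383 in Nogo+/+ muscle, with a two-sided exact permutation p of 0.1, the smallest that 3 mice against 3 can give. Slc2a4 alone made up 59.6% of the class level, and Slc37a4 was the next most abundant, so the sum mostly repeats these genes. The fatty acid, adaptor and other substrate classes reached the same smallest p.

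For fatty acids, 3 of 6 annotated Slc27 genes were in the table and none passed. Slc27a1 (FATP1), the main fatty acid transport protein of muscle, had 47.8, 53.2 and 42.7 FPKM in Nogo-/- muscle and 39.5, 39.3 and 39.4 FPKM in Nogo+/+ muscle. All 3 Nogo-/- mice were above a tight Nogo+/+ group (log2 fold change 0.23, 95% interval 0.07 to 0.39, adjusted p = 0.116). Slc27a3 had 1.18, 1.19 and 1.04 FPKM in Nogo-/- muscle and 1.95, 1.99 and 1.54 FPKM in Nogo+/+ muscle (log2 fold change -0.43, adjusted p = 0.0697), and it passed only without a mean-variance trend (0.0450). Slc27a4 stood apart in 1 library, with 4.92, 4.68 and 8.27 FPKM in Nogo-/- muscle and 5.38, 4.56 and 4.44 FPKM in Nogo+/+ muscle. The high value is in Sample 6, the library with 180 FPKM of keratinocyte markers, and the part of skin in it was not tested. The class median was 0.20 on the log2 scale and -0.04 without Sample 6. The summed level, 86.4% of it from Slc27a1, was 54.0, 59.1 and 52.0 FPKM in Nogo-/- muscle and 46.8, 45.8 and 45.4 FPKM in Nogo+/+ muscle, without overlap (two-sided exact permutation p = 0.1).

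Among monocarboxylate carriers, 3 of 12 annotated genes were in the table and 1 rose. Slc16a3 encodes MCT4, the lactate exporter of glycolytic fibers, and was the most abundant member after Slc2a4. It had 169, 165 and 182 FPKM in Nogo-/- muscle and 175, 189 and 189 FPKM in Nogo+/+ muscle, which overlap (log2 fold change -0.12, 95% interval -0.23 to -0.01, adjusted p = 0.204). Slc16a1 encodes MCT1, the carrier through which oxidative fibers and other cells take up lactate, and it is the gene whose upstream E-box is shown above. It rose, at 15.8, 17.5 and 15.6 FPKM in Nogo-/- muscle, against 12.3, 12.4 and 12.8 FPKM in Nogo+/+ muscle. The log2 fold change was 0.31 (SE 0.06, adjusted p = 0.0285), and the call held only without Sample 4 among the fits that left out 1 library, with adjusted p-values of 0.0452 to 0.110. Bsg, the chaperone that carries both to the membrane, was at 429, 419 and 433 FPKM in Nogo-/- muscle and 418, 398 and 413 FPKM in Nogo+/+ muscle (adjusted p = 0.518).

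**Figure D3:**
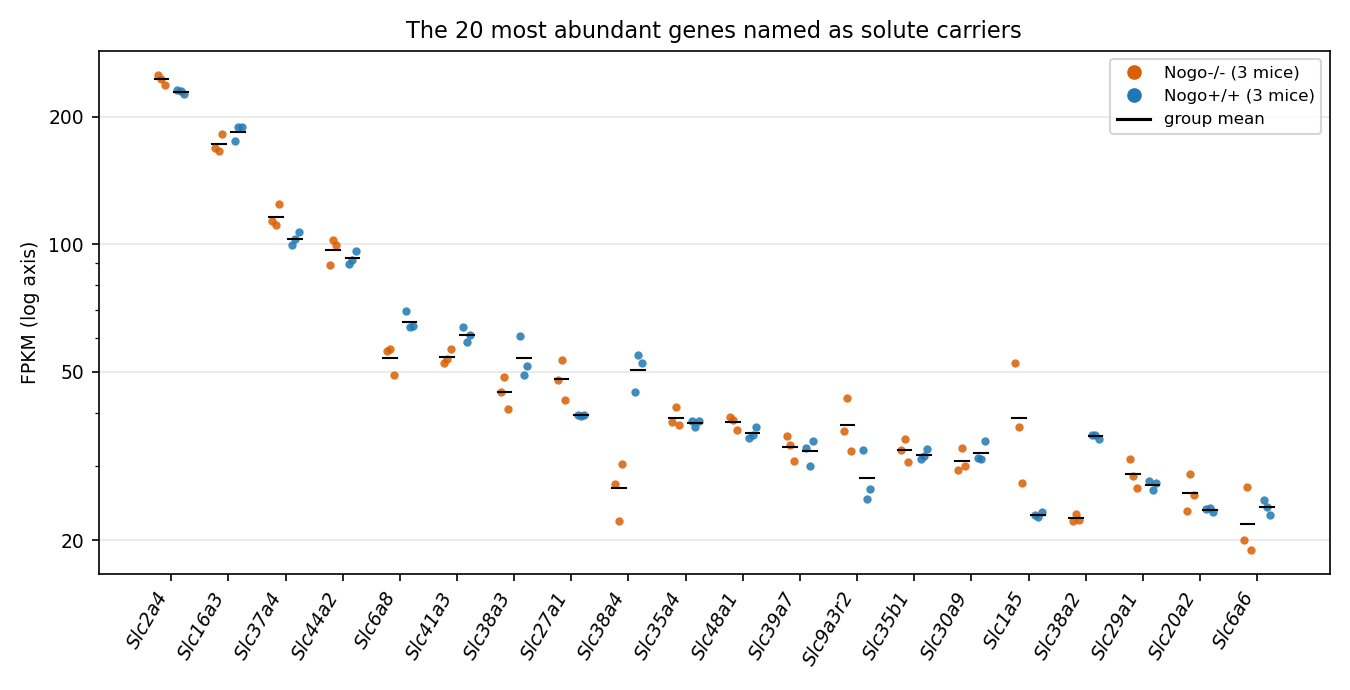
FPKM of the 20 members with the highest mean level, on a log axis, with 1 point per mouse, 3 Nogo-/- mice left of 3 Nogo+/+ mice for each gene and a line at the group mean. Slc2a4, Slc16a3 and Slc37a4 lie above 100 FPKM, and of the 20 genes Slc6a8, Slc38a4 and Slc38a2 passed the test, each lower in Nogo-/-.

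Of the 58 annotated carriers of inorganic ions and phosphate, 26 were in the table, 2 of them higher and 1 lower in Nogo-/-, with a median log2 fold change of 0.04. Slc9a2 encodes NHE2, a sodium-proton exchanger. It had 8.72, 8.89 and 9.94 FPKM in Nogo-/- muscle, against 12.9, 11.9 and 13.0 FPKM in Nogo+/+ muscle, a clear gap between groups with a log2 fold change of -0.46 (SE 0.08, adjusted p = 0.0148). That call was lost without Sample 1, 2 or 3 (adjusted p of 0.0594, 0.0598 and 0.0767). Slc12a4 encodes KCC1, a potassium-chloride cotransporter that cells use in volume regulation. It had 10.6, 10.9 and 8.93 FPKM in Nogo-/- muscle, against 7.25, 7.19 and 6.92 FPKM in Nogo+/+ muscle (log2 fold change 0.41, SE 0.07, adjusted p = 0.0206), and of the fits leaving out 1 library it passed only without Sample 6 (0.0165, with 0.0588 to 0.0929 in the others). Its counterpart Slc12a2 (NKCC1), which loads chloride into cells, had 17.2, 13.7 and 15.1 FPKM in Nogo-/- muscle and 11.4, 12.6 and 13.3 FPKM in Nogo+/+ muscle, without overlap, and did not pass (log2 fold change 0.23, adjusted p = 0.202).

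Slc4a8, a sodium-driven chloride-bicarbonate exchanger best known in neurons, was the scarcest called member. It had 1.26, 1.39 and 1.35 FPKM in Nogo-/- muscle, against 0.571, 0.370 and 0.601 FPKM in Nogo+/+ muscle. The ratio of means was 2.6, on few fragments, and the log2 fold change of 0.58 (SE 0.13, adjusted p = 0.0397) passed in no fit that left out 1 library (adjusted p 0.0611 to 0.139). Slc26a10 had 3.80, 3.79 and 3.43 FPKM in Nogo-/- muscle and 6.68, 4.75 and 4.30 FPKM in Nogo+/+ muscle (adjusted p = 0.104), but its exons overlap those of B4galnt1 on the opposite strand over 715 bases, and reads of the pair may not have been told apart. The phosphate carrier Slc20a2, the most abundant of the class, and the sodium-calcium exchanger Slc8a1 overlapped between the groups (log2 fold changes 0.07 and -0.17).

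Metal ion carriers were well represented, with 24 of 32 annotated genes in the table. The median log2 fold change was -0.02 (0.02 without quantile normalization), with 1 gene higher and 1 lower. Slc40a1 encodes ferroportin, the iron exporter of cells, abundant in macrophages. It had 8.48, 9.24 and 9.83 FPKM in Nogo-/- muscle, against 12.1, 11.5 and 12.1 FPKM in Nogo+/+ muscle (log2 fold change -0.39, SE 0.08, adjusted p = 0.0275). Of the 6 fits leaving out 1 library it passed only without Sample 6 (adjusted p = 0.0219, with values up to 0.113 in the others). Of the macrophage and leukocyte markers, 4 of 5 were in the table with none past the test, and they summed to 7.94 to 12.5 FPKM in Nogo-/- muscle and 7.95 to 11.4 FPKM in Nogo+/+ muscle. The part of macrophages in the level of Slc40a1 was not tested. Slc30a1 encodes ZnT1, the zinc exporter of the plasma membrane. It had 2.81, 3.02 and 2.74 FPKM in Nogo-/- muscle, against 1.88, 1.83 and 1.60 FPKM in Nogo+/+ muscle. The tight groups gave a log2 fold change of 0.44 (SE 0.09, adjusted p = 0.0307), lost in each of the 6 fits leaving out 1 library (0.0582 to 0.117). The magnesium carrier Slc41a3, the most abundant metal ion carrier, had 52.3, 53.5 and 56.7 FPKM in Nogo-/- muscle and 63.8, 58.6 and 60.8 FPKM in Nogo+/+ muscle, without overlap and just outside the threshold (log2 fold change -0.21, adjusted p = 0.0672). Slc39a7, at a mean of 32.8 FPKM, shares exon sequence with Gm20427 on the same strand, so its level is uncertain.

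The nucleoside carriers and the Slc35 family, most of which supply nucleotide sugars to the Golgi and endoplasmic reticulum, had 22 of 34 annotated genes in the table and no gene past the test. Their log2 fold changes ran from -0.31 to 0.16 with a median of -0.02 (0.03 without quantile normalization), a narrower range than that of the amino acid carriers, which ran from -0.96 to 0.87. The equilibrative nucleoside carrier Slc29a1 had 31.2, 28.3 and 26.5 FPKM in Nogo-/- muscle and 27.5, 26.2 and 27.2 FPKM in Nogo+/+ muscle (log2 fold change 0.03, 95% interval -0.11 to 0.17). Slc35f5 was nearest the threshold, at 11.02, 9.19 and 8.46 FPKM in Nogo-/- muscle and 12.0, 11.3 and 11.7 FPKM in Nogo+/+ muscle (adjusted p = 0.0792, and 0.0240 without Sample 4).

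**Figure D4:**
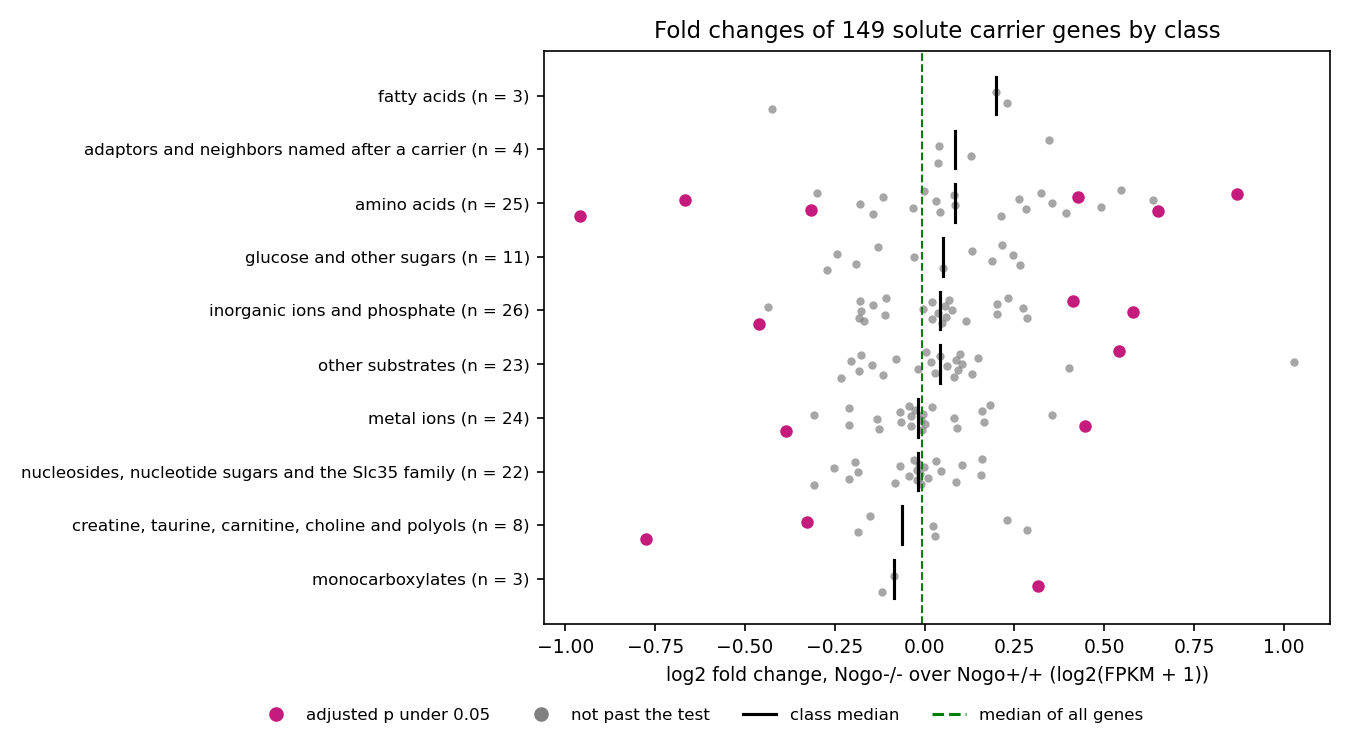
Log2 fold change, Nogo-/- over Nogo+/+, of the 149 members by class, with 1 point per gene, colored points for the 15 past the test, a bar at each class median and a dashed line at the median of all genes in the table (-0.01). Called genes lie on both sides in the amino acid, inorganic ion and metal ion classes, and the nucleoside and Slc35 class has none.

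Among the 23 carriers of other substrates, of 82 annotated, 1 rose. Slc43a3 encodes a carrier of purine nucleobases. It had 17.3, 18.2 and 13.9 FPKM in Nogo-/- muscle, against 11.6, 10.5 and 9.57 FPKM in Nogo+/+ muscle, with every Nogo-/- library higher (log2 fold change 0.54, SE 0.10, adjusted p = 0.0219). It passed without Sample 1 or Sample 6 but not in the other 4 fits leaving out 1 library, where the adjusted p reached 0.0939. Slc10a6, a carrier of sulfated steroids, had the largest log2 fold change of the members, 1.03, on low levels of 2.00, 0.845 and 2.56 FPKM in Nogo-/- muscle and 0.204, 0.174 and 0.489 FPKM in Nogo+/+ muscle. The Nogo-/- mice were all higher but spread widely, and the adjusted p was 0.0557. It was 0.0446 without quantile normalization and 0.0473 with a pseudocount of 0.1. Slc10a6 did not pass with a minimum mean FPKM of 1 (0.0593), without a trend (0.0866) or with sample weights (0.0626). With 1 library left out, it passed only without Sample 5 (0.0136, with 0.0893 to 0.196 in the others). The heme carrier Slc48a1, the most abundant of this class, differed by 0.03 (95% interval -0.08 to 0.14). None of the 4 adaptors and neighbors passed. The most abundant of them, Slc9a3r2, a scaffold protein that holds ion carriers at the membrane, had 36.1, 43.4 and 32.5 FPKM in Nogo-/- muscle and 32.6, 25.0 and 26.4 FPKM in Nogo+/+ muscle, which overlap slightly (log2 fold change 0.35, adjusted p = 0.141).

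Genes outside the family that work with the carriers gave 4 genes higher and 1 lower among 40 tested (41 were listed and Wnk4 is not in the table). Hk2, the hexokinase that traps glucose after entry, had 127, 141 and 124 FPKM in Nogo-/- muscle, against 93.2, 82.3 and 90.0 FPKM in Nogo+/+ muscle, a log2 fold change of 0.52 (SE 0.06, adjusted p = 0.00283) beside the 0.05 of Slc2a4. Gpihbp1, the capillary anchor of lipoprotein lipase, rose by 0.62 (adjusted p = 0.00942) to 65.5, 50.9 and 61.5 FPKM in Nogo-/- muscle, against 38.7, 35.5 and 36.7 FPKM in Nogo+/+ muscle, while the endothelial markers were lower. That call was lost without Sample 2 or 3 (adjusted p of 0.0598 and 0.0531).

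In the amino acid response list, Chac1, which degrades glutathione, rose at 55.6, 43.2 and 25.8 FPKM in Nogo-/- muscle, against 6.72, 8.68 and 12.1 FPKM in Nogo+/+ muscle (log2 fold change 1.99, SE 0.26, adjusted p = 0.00549). Ddit4, a stress-induced inhibitor of mTORC1, rose at 41.5, 12.4 and 79.5 FPKM in Nogo-/- muscle, against 4.25, 5.94 and 6.07 FPKM in Nogo+/+ muscle (log2 fold change 2.45, SE 0.54, adjusted p = 0.0431), and among the fits leaving out 1 library it passed only without Sample 5 (0.00168, with 0.0596 to 0.139 in the others). The other 5 listed genes did not pass. Atf4, the transcription factor of that response, was at 131, 130 and 126 FPKM in Nogo-/- muscle and 135, 133 and 141 FPKM in Nogo+/+ muscle (log2 fold change -0.12, adjusted p = 0.114). Its target Asns was at 1.63, 1.31 and 1.38 FPKM in Nogo-/- muscle and 1.23, 1.26 and 1.35 FPKM in Nogo+/+ muscle, which overlap (adjusted p = 0.766).

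Over the 15 called members, Slc38a2, Slc38a4, Slc7a8 and Slc16a9 passed in every fit that left out 1 library, 7 passed in 1 to 3 of them, and Slc43a1, Slc16a10, Slc4a8 and Slc30a1 passed in none. The fits lacking a Nogo+/+ library called fewer members, with 5 called without Sample 1 and 4 each without Sample 2 or 3, against 10, 9 and 15 without the Nogo-/- Samples 4, 5 and 6. All genes together moved likewise, at 188 to 301 calls without a Nogo+/+ library and 378 to 434 without a Nogo-/- library, against 573 with all 6. The exons of Slc7a2, Slc12a4, Slc16a9 and Slc30a1 overlap those of genes on the opposite strand that are not in the table, and no other called member shares exon sequence with another annotated gene.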

How the data were processed

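Gastrocnemius RNA of 3 Nogo-/- and 3 Nogo+/+ mice was analyzed. The authors used a stranded mRNA kit and a HiSeq 2500. Their processing notes name CASAVA 1.8.2, cutadapt 1.4.2 for adapters, STAR 2.6.1 for alignment to GRCm38.p6 and Cufflinks 2.2.1 for quantification. The strand setting of the quantification is not given in the sources used here. The authors deposited FPKM only for genes that reached 1 in some library. A further 6 deposited columns of normalized log2 values were not used. The FPKM were quantile-normalized over 12353 genes, taken as log2(FPKM + 1), so that folds of scarce genes are understated, and tested in limma 3.58.1 (R 4.3.3, lmFit and eBayes with a trend, no covariates, Benjamini-Hochberg over all genes, 0.05). FPKM are not counts, so no count test was run. Printed FPKM are the deposited ones.

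The study's own headings give each column's genotype but not which mouse it is. The limma p-values weigh the difference between genotypes against the spread between these mice, with each gene's spread drawn toward that of genes at a like level. Symbols and coordinates are from GENCODE M21 (12342 identifiers matched, 11540 protein-coding). Depth was recovered from single-transcript genes, 94.6% to 95.8% of whose low values lay within 0.1 of a whole fragment. Sums over a class were set against each other by exact two-sided permutation (SciPy 1.17.1). Named genes are the members past the threshold, the 3 most abundant of each class, up to 2 more per class with the smallest unadjusted p under 0.05, carriers best known in muscle, and Rtn4. Others were named after their values were seen, and not every gene the rule takes in is described, since some, though counted, are not reported here. Members, classes, partner genes and markers were chosen with earlier results of these data known. Alternatives tried were sample weights, no trend, no quantile normalization, a filter on mean FPKM (minimum 1), a smaller pseudocount (0.1) and leaving out each library. The tests were checked on simulated data.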

Additional observations from a re-analysis of the deposited data

How the results depend on the processing

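Under the 5 alternatives that kept all 6 libraries, the 15 called members gave 69 of 74 values past the threshold in the same direction, and the 5 losses were Slc16a10 and Slc6a8 without quantile normalization and Slc16a10, Slc43a1 and Slc6a8 without a trend. No called member changed sign under any alternative, and of the named members not called, Slc35a4, Slc35b1 and Slc39a7, all near 0, changed sign without quantile normalization and others did when a library was left out. A mean FPKM of at least 1 removes Slc4a8 from the table. Calls gained were Slc10a6 with a pseudocount of 0.1, Slc10a6, Slc3a2 and Slc45a4 without quantile normalization, and Slc27a3 without a trend. With 1 library left out, members called ran from 1 to 9 higher and 3 to 7 lower, and partner genes from 2 to 5 higher and 0 to 1 lower. The number of partner genes lower was 0 without quantile normalization and 0 without a trend.

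Class medians of the log2 fold change moved as follows. For amino acids the median was 0.15 with a pseudocount of 0.1 and 0.24 with a mean FPKM of at least 1. With that filter it was -0.15 for the creatine class and 0.13 for sugars. Without quantile normalization it was -0.0221 for the creatine class, 0.0974 for sugars, 0.0814 for inorganic ions, 0.0246 for metal ions, 0.0288 for nucleosides and Slc35, and 0.0975 for other substrates. With 1 library left out it ran from 0.0764 to 0.158 for amino acids, -0.114 to -0.0155 for the creatine class, -0.0449 to 0.237 for fatty acids, 0.0012 to 0.0888 for inorganic ions, -0.0467 to -0.0062 for metal ions, -0.105 to -0.0443 for monocarboxylates, -0.0532 to -0.0007 for nucleosides and Slc35, and 0.0460 to 0.1696 for adaptors. The cause was not tested.

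No paired analysis was possible because the table's columns carry no replicate number. A total of 103 members had a mean FPKM under 10, and 6 of the 15 called members were among them.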
